A study of Rattus norvegicus with 6 samples.

Results

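The miR-379 to miR-410 cluster is a run of microRNA (miRNA) precursors on rat chromosome 6. Members were all rat miRNAs on the array with a probe placed by the array design files at chr6:134380000-134430000 of the rn4 build, whatever their signal. These were 57 of the 719 rat miRNAs on the array, measured by 130 of 1730 probes. They came from 29 precursor names, 28 with a 5p and a 3p arm on the array and 1, miR-409b, with no arm named. By the order of their coordinates 54 members lie on the plus strand, from miR-379-5p at one end to miR-410-3p, which starts 36.91 kb downstream. The other 3, both arms of miR-299b and miR-409b, lie on the minus strand opposite their namesakes miR-299a and miR-409a.

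The cluster belongs to the Dlk1-Dio3 domain, an imprinted region in which the noncoding genes are expressed from the chromosome inherited from the mother. Its precursors are cut as hairpins from long noncoding transcripts, and either arm of a hairpin can become the mature miRNA that guides repression of target messengers through its seed, the bases near its 5′ end. The cluster is best known from brain, where the transcription factor Mef2 induces it and miR-134 acts in dendrites, and the domain's miRNAs are also expressed in developing muscle and in cultured myoblasts.

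The cells were rat primary skeletal muscle cells (RSkMC), a commercial culture from the limb muscle of newborn animals, frozen at the second passage and analysed on day 11 of differentiation in medium with 2% horse serum. The control group (n = 3 samples) was untreated, and the IL-8 group (n = 3 samples) received recombinant interleukin-8 (1 ng/ml), a chemoattractant of neutrophils, through differentiation. The design asks which miRNAs change with IL-8. Whether a group's samples were separate cultures is not in the labels, so the p-values measure a spread between samples that may be technical. Each group had a slide of its own, and the effects of slide and IL-8 cannot be told apart in any result that follows. The muscle-enriched miRNAs miR-1, miR-133, miR-206, miR-208 and miR-499 had 14 arms on the array and none was well above background on any array, the highest background-subtracted signal being 9.23 in the scanner's units. Of 10 arms typical of fibroblasts and smooth muscle, 8 were above background, 8 were tested and 0 were called. Their summed signal was 4468 to 5310% of an array's 75th percentile in control and 4616 to 5002% with IL-8. Of 16 neural arms, 2 were above background, with a summed signal of 11.3 to 12.9% in control and 10.7 to 11.6% with IL-8. Cultures are mixtures, and a change in the number of cells that express a miRNA cannot be told apart from a change in its amount per cell.

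The mature sequences of the 14 members that could be compared between groups are shown 5′ to 3′ in genomic order, because the seed decides which messengers a miRNA can pair with. Capitals mark the seed, bases 2 to 8, and the sequences are those of RefSeq on the GRCr8 assembly, which held all 57 members.
miR-379-5p: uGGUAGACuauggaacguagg
miR-411-5p: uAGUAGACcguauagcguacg
miR-411-3p: uAUGUAACacgguccacuaa
miR-299a-5p: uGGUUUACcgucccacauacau
miR-380-3p: uAUGUAGUaugguccacaucu
miR-329-3p: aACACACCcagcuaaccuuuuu
miR-494-3p: uGAAACAUacacgggaaaccucu
miR-376c-3p: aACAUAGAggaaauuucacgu
miR-376a-3p: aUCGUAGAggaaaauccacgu
miR-381-3p: uAUACAAGggcaagcucu
miR-487b-3p: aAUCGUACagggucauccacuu
miR-382-5p: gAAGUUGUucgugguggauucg
miR-154-5p: uAGGUUAUccguguugccuucg
miR-410-3p: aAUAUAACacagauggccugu

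These 14 seeds are all different. The closest pairs are miR-379-5p with miR-411-5p and miR-411-3p with miR-410-3p, whose seeds are alike at 6 of 7 bases. Over all 57 members there were 52 distinct seeds, and 4 seeds were shared within the cluster. One was common to the 5p arms of miR-494, miR-496 and miR-410, one to miR-381-3p and miR-539-3p, and one each to the 5p and the 3p arms of miR-299a and miR-299b. Of these sharers, miR-381-3p and miR-299a-5p were tested. In miRNAs that the position rule did not take as members, 4 seeds recurred on the array. That of miR-329-3p recurred in miR-362-3p, of miR-376c-3p in miR-741-5p, of miR-377-5p in miR-672-5p and of miR-376c-5p in miR-376b-5p. Of these non-members, miR-376b-5p alone was tested. The median GC content of the mature sequences was 43.95% for tested members and 50% for the others.

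The hairpins of the neighbouring precursors miR-379 and miR-411 are shown because they carry the 3 members with the smallest p. Capitals mark the mature arms.
Mir379: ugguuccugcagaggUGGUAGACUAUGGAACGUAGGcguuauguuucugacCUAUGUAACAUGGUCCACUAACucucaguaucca
Mir411: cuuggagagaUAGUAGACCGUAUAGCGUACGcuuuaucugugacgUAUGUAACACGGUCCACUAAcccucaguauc

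Array probes complement the 3′ part of a miRNA, and 102 of the 130 member probes reached into the seed. Both probes of miR-494-3p stop short of its seed, pairing from base 9 or 10 on. A run of 9 bases, TAGTGGACC (read on the probe strand, and overlapping no other searched motif), occurred in the longest probes of 4 of the 719 miRNAs (0.556%), all of them members. The probes are shown with that run in capitals because they had different outcomes on the array.
miR-379-3p: gtTAGTGGACCatgtta
miR-411-3p: tTAGTGGACCgtgttac
miR-412-3p: acggcTAGTGGACCag
miR-758-3p: ggtTAGTGGACCaggtcac

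Of these, miR-411-3p was above background on 6 arrays, miR-379-3p on 2, and miR-412-3p and miR-758-3p on 0. The longest probe of miR-299b-5p, 16 bases long, lies wholly within the 20-base probe of miR-299a-5p. It was never above background, while miR-299a-5p was above background on all 6 arrays.

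Detection was the exception in the cluster and was spread along its length. A member counted as detected on an array when more than 50% of the spots of at least 1 of its probes were well above background by the scanner software. By that measure 11 members were detected on all 6 arrays, 4 on some and 42 on none. The 42 undetected members had background-subtracted signals from -12.1 to 13.3 in the scanner's units. Both arms of miR-134, the dendritic miRNA, were among them. The neighbouring precursors miR-666, miR-543 and miR-667 had no detected arm, nor had those from miR-496 to miR-412. The tested miRNAs, those detected on all 3 arrays of a group, were 14 members (24.6%), beside 167 of all 719 (23.2%).

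**Figure D1:**
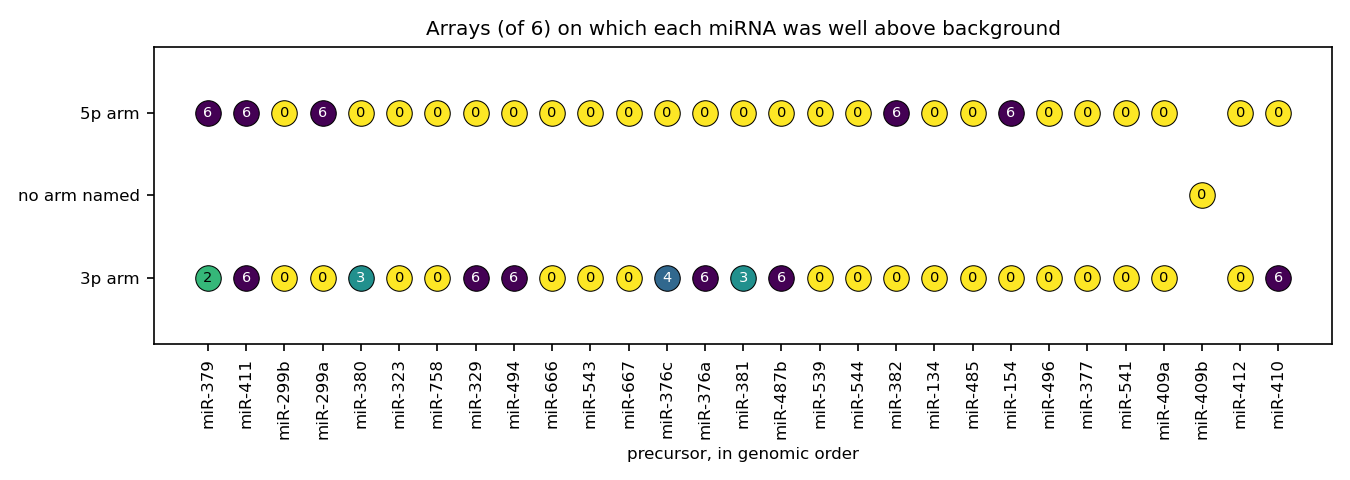
Number of arrays, of 6, on which each cluster miRNA was well above background, for the 5p arm, the 3p arm or an arm not named (rows) of each precursor in genomic order (columns). 11 members reached 6 arrays, and 42 reached 0.

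For 4 members, detection differed between arrays. miR-379-3p was detected on 0 control and 2 IL-8 arrays, and its brightest probe read 7.92, 11.2 and 10.7 on the control arrays and 17.8, 15.8 and 13.8 on the IL-8 arrays, so the groups did not overlap before scaling. It was not tested. miR-380-3p and miR-381-3p were each detected on 0 control and 3 IL-8 arrays. No fold limit can be given for them, because their scaled IL-8 signals averaged below the lowest scaled signals that counted as detected in control. miR-376c-3p was detected on 1 control and 3 IL-8 arrays. The arrays themselves differed the same way. Control arrays had 11, 11 and 12 members and 154, 156 and 164 miRNAs of all kinds detected, while IL-8 arrays had 15, 15 and 14 members and 181, 170 and 168 miRNAs. The lowest detected signal was 15.98 to 17.1 in control and 12.3 to 14.6 with IL-8, and the 75th percentile was 439 to 497 and 535 to 566. The part of these array differences in the detection of the 4 members was not tested.

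Most precursors gave a signal from 1 arm or none. Of the 28 precursors with both arms on the array, 8 (28.6%) had the 3p arm alone tested, against 48 of 263 (18.3%) over the whole array. The 5p arm alone was tested for 4 (14.3%), against 49 (18.6%). miR-411 was the 1 precursor (3.57%) with both arms tested, against 19 (7.22%), and 15 (53.6%) had neither, against 147 (55.9%). The 3p-only precursors were miR-380, miR-329, miR-494, miR-376c, miR-376a, miR-381, miR-487b and miR-410. The 5p-only ones were miR-379, miR-299a, miR-382 and miR-154. Of the 3p-only precursors, miR-380, miR-376c and miR-381 were tested through the IL-8 arrays alone, and so were chosen where they are high. The 3p-only share beside that of the whole array therefore cannot be read as an arm preference of the cluster.

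Between groups the differences were small. Values are log2 of the signal over the array's 75th percentile, so a change is relative to the other miRNAs, and levels of different miRNAs cannot be ordered because each has its own probes. 1 of the 14 tested members passed limma's test at an adjusted p of 0.05 (7.14%), miR-411-3p, which rose, beside 12 of all 167 tested miRNAs (7.19%). The median change over the 14 was 0.19, beside 0.025 over all 167. With normexp background correction, an alternative correction of the raw spot brightness, both were below 0, at -0.053 and -0.066. Normexp was run with an offset of 50 added to every spot, about the size of many member signals. The IL-8 arrays had the higher 75th percentile, so a constant added to every spot can by itself lower the scaled change of dim signals. The part of the offset in these values was not tested, and no other offset was tried. Under the main setting the change also varied with brightness. In the 10 members with 2 probes used, the dimmer probe gave the higher change, except in miR-329-3p and miR-410-3p. The brighter and dimmer probes gave 0.18 and 0.26 for miR-379-5p, and 0.18 and 0.16 for miR-410-3p. The part of dimness in the members' median was not tested. The mean was higher with IL-8 for 12 of 14 members (85.7%), beside 61.1% of all tested miRNAs, counting miR-154-5p at 0.00032, and for 3 of 14 under normexp. At an unadjusted p under 0.05 there were 8 members, all higher (57.1%), beside 15% of all tested miRNAs. The IL-8 arrays all lay above the control arrays for 6 members (42.9%), beside 17.4%. These shares cannot be read as support for a shift. miR-380-3p, miR-376c-3p and miR-381-3p passed the filter on dim signals through the IL-8 arrays alone and so were chosen where they are high. The dimmer probe of miR-411-5p entered the same way. Of all 167 tested miRNAs, 14 entered through the IL-8 arrays alone and 1 through the control arrays alone. With probes required to be detected on all 6 arrays, 11 members were left, and for miR-411-5p its dimmer probe fell out. Of these 11, 1 was called (9.09%, beside 7.24% of 152 miRNAs), 9 had a higher mean (81.8%, beside 55.9%), 5 were higher at an unadjusted p under 0.05 (45.5%, beside 12.5%) and 4 did not overlap (36.4%, beside 16.4%), with a median change of 0.15 beside 0.013.

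Members are measured on the same arrays and lie in one cluster, so they are not independent replicates of one another. Leaving out control 1 or control 2 left 0 members called, beside 9 and 3 of all tested miRNAs. Leaving out IL-8 array 1, 2 or 3 left 0 members, beside 6, 1 and 3 of all tested miRNAs. Without control 3 there were 6 members called, beside 32 of all tested miRNAs.

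**Figure D2:**
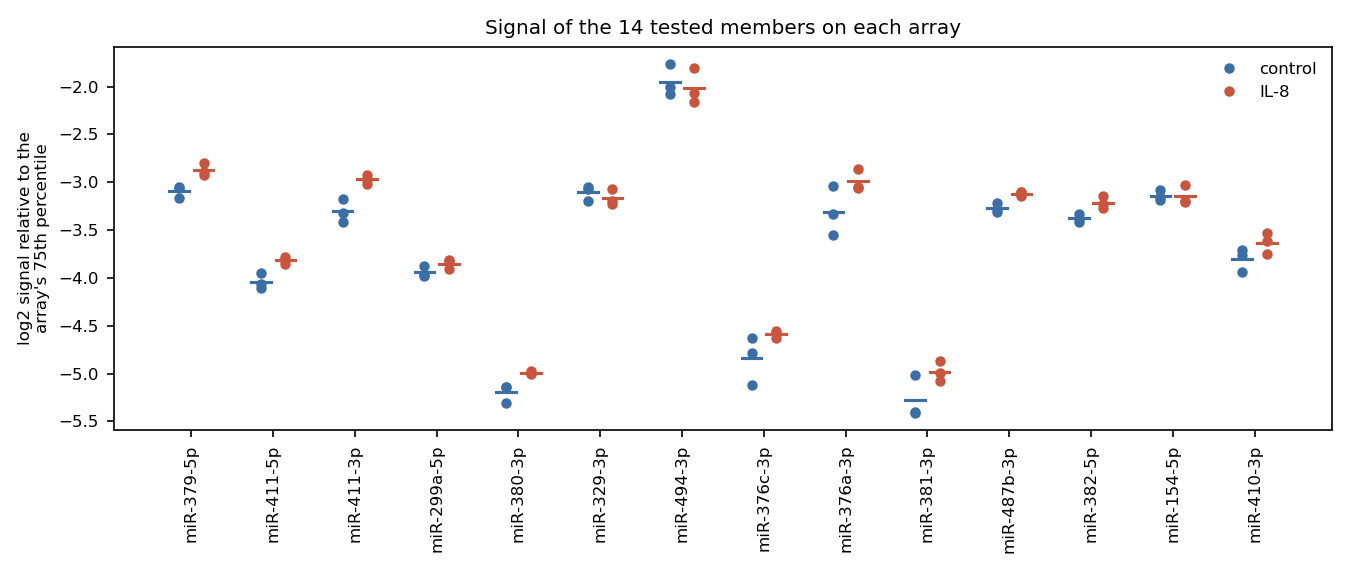
Log2 signal relative to the array's 75th percentile for the 14 tested members in genomic order, one point per array, control (n = 3) and IL-8 (n = 3), with a line at each group's mean. The groups do not overlap for 6 members, all higher with IL-8 (42.9%, beside 17.4% of all tested miRNAs). Of these 6, miR-380-3p and the dimmer probe of miR-411-5p were used through the IL-8 arrays alone. With probes detected on all 6 arrays, 4 of 11 members do not overlap (36.4%, beside 16.4%). miR-494-3p has the widest spread with IL-8 (SD 0.18).

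Of the 12 calls over the whole array, 6 were higher and 6 lower. This split moved with the scaling, to 53 higher and 0 lower with no scaling between arrays, 4 and 10 with median scaling, and 3 and 23 with normexp. The median of all tested miRNAs was 0.25 with no scaling and -0.079 when the 75th percentile was taken over all probes. Dividing an array by a single number shifts all its miRNAs alike, so the members' median stayed 0.16 above that of all tested miRNAs under the main setting and these divisors. The gap was 0.11 with quantile normalization and 0.012 with normexp, whose offset narrows the changes of dim miRNAs.

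At the 5′ end, miR-379 and miR-411 gave the 3 members with the smallest p under the main setting. miR-379-5p, the first miRNA of the cluster, read 12.05, 11.9 and 11.2% of the 75th percentile on control arrays 1 to 3, and 13.2, 14.3 and 13.4% on IL-8 arrays 1 to 3. Every IL-8 array was above every control array. The log2 mean was -3.09 ± 0.06 (SD, n = 3) in control and -2.88 ± 0.06 (SD, n = 3) with IL-8, a change of 0.22 (SE 0.061) with a limma adjusted p of 0.0742.

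miR-411-3p, whose probe lies at chr6:134389396-134389411 (rn4, plus strand), comes from the opposite arm of the hairpin to miR-411-5p. Control arrays 1 to 3 read 9.39, 10.0 and 11.0%, and IL-8 arrays 12.4, 13.2 and 12.7%. The groups did not overlap, with control 3 nearest to the IL-8 arrays. It rose from -3.30 ± 0.12 (SD, n = 3) to -2.97 ± 0.05 (SD, n = 3), a change of 0.33 (SE 0.072) or 1.26-fold (95% confidence interval 1.12 to 1.42), with an adjusted p of 0.0305 by limma. Its 2 probes gave 0.31 and 0.36. It missed the threshold in 9 of 18 alternatives, including when any single array other than control 3 was left out, and adjusted p ran from 0.00382 to 0.998.

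miR-411-5p, reported in myoblasts to repress Yaf2, read 5.82, 5.98 and 6.48% in control and 6.90, 7.29 and 7.12% with IL-8. With its 2 probes averaged, no array of one group reached the other. Its change was 0.22 (SE 0.061) with a limma adjusted p of 0.0742, and its brighter and dimmer probes gave 0.13 and 0.31. The dimmer probe was well above background on 2 of the 3 control arrays, so it was used through the IL-8 arrays alone. With the brighter probe only, detected on all 6 arrays, control 3 lay above IL-8 array 1. The change was then 0.13 (SE 0.069; limma adjusted p = 0.289). With normexp its change was -0.046.

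Further along, miR-299a-5p read 6.38, 6.36 and 6.81% in control and 6.65, 7.10 and 7.04% with IL-8. The groups overlapped, since IL-8 array 1 lay below control 3, and the change was 0.089 (SE 0.058; limma adjusted p = 0.403). miR-380-3p, close to the lower limit of detection, read 2.53, 2.83 and 2.83% in control and 3.19, 3.13 and 3.11% with IL-8. Its groups did not overlap, and the change of 0.21 (SE 0.063) had a limma adjusted p of 0.104. All 3 control values come from a probe that was not well above background there.

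miR-329-3p and miR-494-3p were the 2 tested members with a mean below control. miR-329, one of the Mef2-responsive miRNAs of neurons, read 12.1, 10.9 and 11.9% in control and 10.9, 10.7 and 11.9% with IL-8, a change of -0.059 (SE 0.069; limma adjusted p = 0.679). miR-494-3p, described as a repressor of mitochondrial transcription factors in muscle cells, read 29.4, 23.8 and 24.9% in control and 28.6, 23.9 and 22.4% with IL-8. In both groups array 1 was the highest, and the ranges overlapped almost entirely. The change was -0.062 (SE 0.113; limma adjusted p = 0.794), and the 2 probes gave -0.14 and 0.014. With no scaling between arrays the changes of miR-329-3p and miR-494-3p were 0.17 and 0.17.

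**Figure D3:**
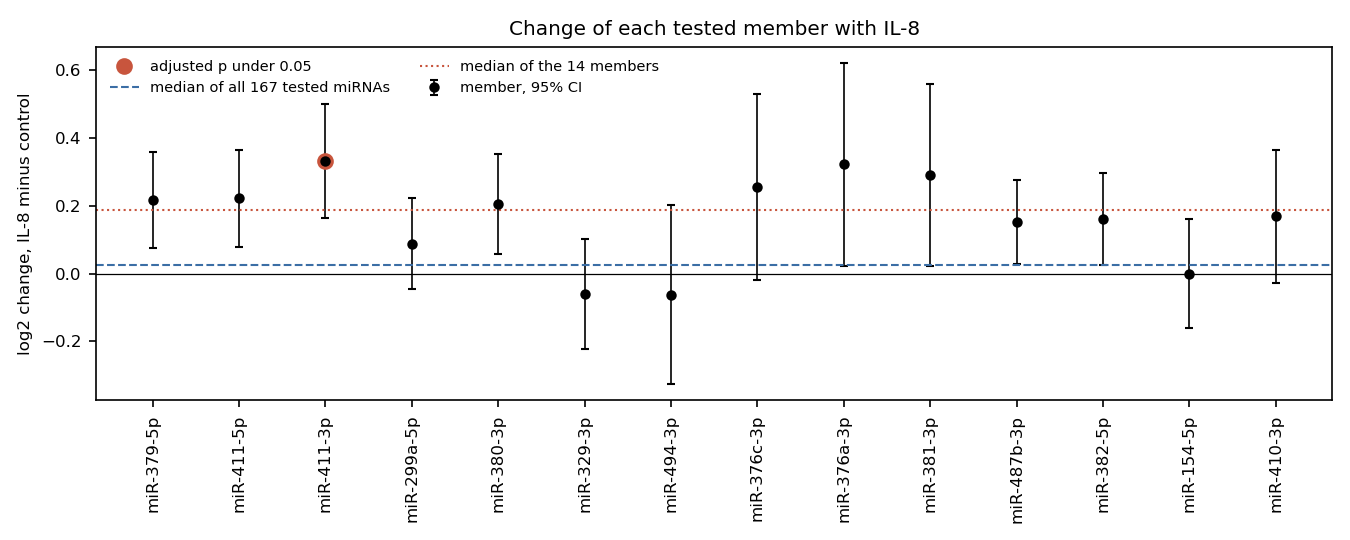
Log2 change with IL-8 of the 14 tested members in genomic order (points) with 95% confidence intervals from limma (bars). The dotted line is the members' median (0.19) and the dashed line the median of all 167 tested miRNAs (0.025). The larger coloured point is miR-411-3p. miR-380-3p, miR-376c-3p and miR-381-3p were tested through the IL-8 arrays alone. With normexp background correction at an offset of 50, 3 of the 14 points lie above 0. The part of the offset was not tested.

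In the middle of the cluster lie miR-376c and miR-376a, members of a family known for adenosine-to-inosine editing of the seed, and miR-381. These probe signals do not report editing. miR-376a-3p read 8.52, 9.90 and 12.2% in control and 12.01, 13.8 and 12.1% with IL-8. Control 3 lay above 2 of the IL-8 arrays, and the change of 0.32 (SE 0.128) had a limma adjusted p of 0.172. For miR-376c-3p the values were 2.88, 3.64 and 4.05% in control and 4.18, 4.05 and 4.27% with IL-8. Control 3 again met the IL-8 range, and the change was 0.26 (SE 0.118; limma adjusted p = 0.242).

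miR-381-3p read 2.36, 2.37 and 3.09% in control and 3.41, 2.95 and 3.13% with IL-8. Control 3 lay above IL-8 array 2, and the change was 0.29 (SE 0.115; limma adjusted p = 0.172). As for miR-380-3p, its control values come from a probe not well above background on any control array, and that of miR-376c-3p was on 1. These 3 members had control SDs of 0.26, 0.25 and 0.22 on the log2 scale, wider than their IL-8 SDs of 0.11, 0.04 and 0.11. Without control 3, 6 members were called rather than 1, namely miR-376a-3p, miR-376c-3p, miR-380-3p, miR-381-3p, miR-411-3p and miR-411-5p, beside 32 calls rather than 12 over all tested miRNAs. Of these 6, miR-376c-3p, miR-380-3p and miR-381-3p were tested only through their detection on the IL-8 arrays. Control 3 was the highest control array for 9 of the 14 members (64.3%) and for 59.9% of all tested miRNAs, and control 1 was the lowest for the same shares.

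miR-487b-3p had the narrowest spread after miR-380-3p with IL-8. It read 10.7, 10.3 and 10.0% in control and 11.6, 11.6 and 11.3% with IL-8. The groups did not overlap, and the change of 0.15 (SE 0.054) had a limma adjusted p of 0.148. miR-382-5p, from a precursor 27.06 kb downstream of miR-379, read 9.36, 9.95 and 9.60% in control and 10.7, 10.4 and 11.3% with IL-8. It too showed no overlap, with a change of 0.16 (SE 0.058; limma adjusted p = 0.148).

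At the 3′ end, miR-154-5p was the member with the smallest change. It read 11.0, 11.2 and 11.9% in control and 10.9, 10.9 and 12.3% with IL-8, with means of -3.14 and -3.14 and a 95% confidence interval of the change from -0.16 to 0.16. Its 2 probes disagreed in sign, at -0.027 and 0.027. miR-410-3p, reported downstream of Mef2a in muscle cells to repress the Wnt inhibitor Sfrp2, read 6.52, 7.38 and 7.64% in control and 7.43, 8.65 and 8.15% with IL-8. IL-8 array 1 lay between the controls, and the change was 0.17 (SE 0.084; limma adjusted p = 0.286).

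By arm, the 5 tested 5p arms had a median change of 0.16 and the 9 tested 3p arms one of 0.21. The 3 members tested through the IL-8 arrays alone are all 3p arms, so these medians are not comparable. miR-411 alone allowed both arms of a hairpin to be compared. Its 5p minus 3p log2 signal was -0.69, -0.75 and -0.77 on the control arrays and -0.84, -0.85 and -0.84 on the IL-8 arrays. The 5p value averages in the dimmer miR-411-5p probe, which was used through the IL-8 arrays alone. The groups did not overlap, as in 5 of all 19 precursors with both arms tested. IL-8 minus control was -0.11 (SE 0.043), with a limma adjusted p of 0.262 over the 19 precursors. Of these 19, 0 were called (0%), and 3 had an unadjusted p under 0.05.

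The tested members took a small share of the summed signal of all tested miRNAs. It was 0.975, 0.887 and 0.897% on the control arrays and 1.02, 0.967 and 0.952% on the IL-8 arrays. Because each miRNA has its own probes, this is a share of brightness and not of abundance. The shares of the groups overlapped, since control 1 lay above IL-8 arrays 2 and 3.

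The other miRNAs of the Dlk1-Dio3 region gave a comparison from the same imprinted domain. Of 23 arms outside the window, among them those of miR-127, which repress the retrotransposon-like gene Rtl1 from its antisense strand, 9 were tested. None passed limma's test and 0 had an unadjusted p under 0.05, while 7 had a higher and 2 a lower mean, with a median change of 0.048. The smallest p were those of miR-136-5p, with a change of 0.24 (SE 0.215; limma adjusted p = 0.559), miR-127-5p, at 0.085 (adjusted p = 0.616 by limma), and miR-136-3p, at 0.13 (adjusted p = 0.633 by limma). Whether the cluster and the rest of the region differ was not tested.

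RefSeq places 38 precursors from miR-379 to miR-410, more than the array positions do. A further 14 miRNAs of these precursors were on the array with no rn4 position in the window, and 3 of them were tested. miR-369-5p had a difference of 0.16 (limma adjusted p = 0.148), miR-300-3p one of 0.10 (limma adjusted p = 0.302) and miR-495 one of 0.057 (limma adjusted p = 0.731), none past the threshold. These 3 were left out of all member counts.

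**Figure D4:**
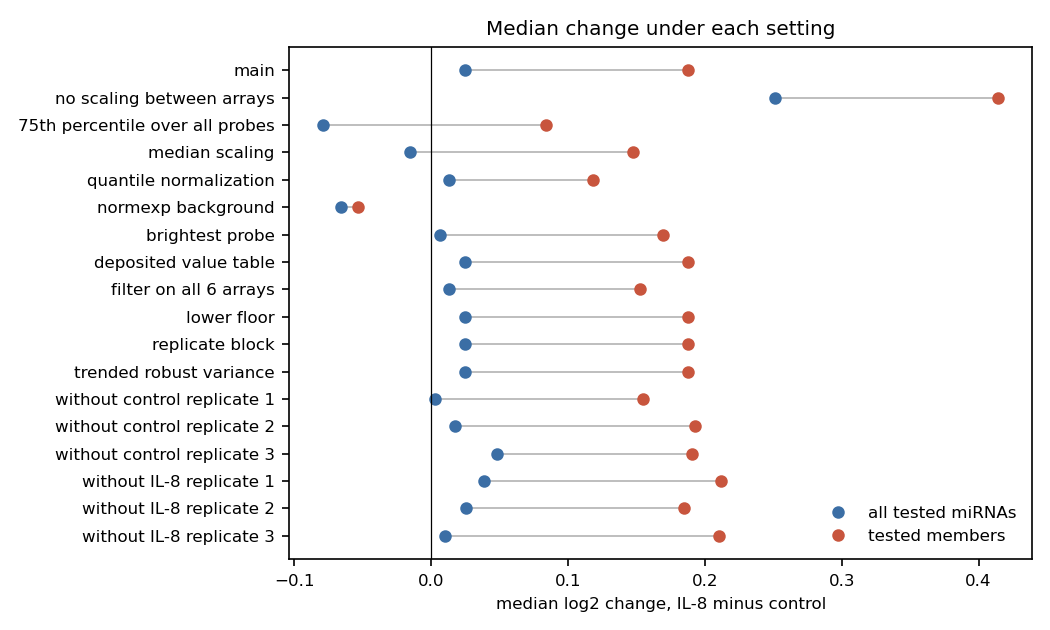
Median log2 change with IL-8 of the tested members and of all tested miRNAs under the main setting and the alternatives that keep a filter on dim probes. The members' median lies right of that of all tested miRNAs in every line, and below 0 in the normexp line alone (-0.053). An offset of 50 was added to every spot under normexp, and no other offset was tried.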

How the data were processed

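The deposited values are fluorescence intensities of array spots on a linear scale, background-subtracted and not normalized between arrays per the file headers, and extracted with Agilent Feature Extraction 10.10.1.1 per the submitters' processing notes. Per the labels' protocols, 100 ng of total RNA per sample (RNA integrity number 9.5 to 10.0) was labelled with Cy3. Groups follow the sample titles, agent labels and design text; the growth protocol describes IL-8 for all samples.

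Spots of a probe were averaged without outlier spots. For scaling, the 75th percentile of the 265 probes detected on all 6 arrays was set to 1 on each array. Then log2 was taken, with a floor at -6.44 that no tested miRNA reached. A miRNA's value was the mean of the probes detected on all 3 arrays of either group: 1 probe for 4 members and 2 for 10. The other 552 miRNAs were not tested. Dim probes near background have unstable ratios, and 3 arrays a group limit the precision. No spot was saturated.

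The 2 groups were compared in limma 3.58.1 with lmFit and eBayes (R 4.3.3, with version 1.17.8 of data.table), with Benjamini-Hochberg adjustment over 167 miRNAs and a threshold of 0.05. The fit was tested on simulated data. Marker lists were of skeletal muscle, fibroblast and smooth muscle, neural, blood (1 of 10 arms above background) and endothelial (0 of 2) miRNAs. All tested members are named, with the other Dlk1-Dio3 miRNAs counted and the 3 of smallest p named. The untested and neighbouring miRNAs, shared probe runs and hairpins were singled out after their values were seen. The members and lists were chosen with earlier results of these data known. Alternatives were other scalings, normexp background correction (offset 50), the brightest probe, the deposited total probe signal, other filters, a lower floor, a replicate block, a trended robust variance and leaving out each array. Gene annotation of rn4 was not used here.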

Additional observations from a re-analysis of the deposited data

How the results depend on the processing

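The count of 12 called miRNAs became 53 with no scaling between arrays, 0 when the 75th percentile was taken over all probes (9 at an unadjusted p under 0.05), 26 with normexp and 0 of 719 without a filter (41 at an unadjusted p under 0.05). The count of 1 called member became 11 with no scaling, and 0 with that percentile, with normexp and without a filter. The members' median change of 0.19 became 0.41, 0.084, -0.053 and 0 under these 4 settings. Without a filter, members held at the floor on all arrays have a change of 0 by construction, and 18 of 57 had a higher mean. That median of 0 is therefore not an estimate of a change. With the replicate number as a block 3 miRNAs and 0 members were called. The pairs of equal number correlated at 0.24, 0.33 and 0.081, and control 2 correlated best with IL-8 array 3, at 0.35. With 3 arrays a group these correlations cannot decide whether the numbers are a pairing. The main setting took none. Leaving out control 1, 2 or 3 gave 9, 3 or 32 called miRNAs, and leaving out IL-8 array 1, 2 or 3 gave 6, 1 or 3. Over these 6 settings there were 0 to 6 called members and member medians from 0.15 to 0.21. Of the arm differences 1 was called with trended robust variance. No member value of opposite sign was past the threshold, and those under normexp were obtained with its offset of 50. Under normexp such values were -0.046 for miR-411-5p, -0.089 for miR-299a-5p, -0.12 for miR-380-3p, -0.060 for miR-376c-3p, -0.11 for miR-381-3p, -0.019 for miR-487b-3p, -0.019 for miR-382-5p, -0.084 for miR-154-5p and -0.041 for miR-410-3p. With the percentile over all probes they were -0.014 for miR-299a-5p and -0.10 for miR-154-5p. miR-154-5p was also at -0.040 with median scaling, -0.036 with quantile normalization and -0.027 with its brightest probe. With no scaling miR-329-3p was at 0.17 and miR-494-3p at 0.17. Without single arrays miR-154-5p ran from -0.067 to 0.031 and miR-494-3p from -0.16 to 0.038. The causes were not tested.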
